A study of Homo sapiens with 15 samples.

Results

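OLR1 encodes the lectin-like oxidized LDL receptor, and it was measured by 1 of the 34878 deposited probe sets. That probe set was found by its platform gene symbol, among 14841 probe sets that carry a single symbol and stand for 14361 genes. OLR1 was chosen by its measured group means on these same arrays, higher with the androgen DHT and lower with the progestins than with vehicle. Its levels are therefore given as a description, with no test. The 5 groups are ZR-75-1 cells, an estrogen receptor-positive human breast cancer line, kept in growth medium with serum and given 10 nM MPA, PROG, DHT or DEX, or vehicle (0.1% ethanol), for 6 h. MPA is medroxyprogesterone acetate, a synthetic progestin made from the progesterone skeleton with a methyl and an acetoxy group added. PROG is progesterone, DHT is dihydrotestosterone and DEX is dexamethasone, a synthetic glucocorticoid. Each group has 3 Affymetrix arrays, 15 in all, which limits the precision of every value.

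The OLR1 protein is a C-type lectin-like membrane receptor that binds oxidized LDL and other modified particles. It is best known from vascular endothelium, macrophages and smooth muscle, where its engagement activates NF-kB and the production of reactive oxygen species. Its gene lies in the natural killer gene complex on chromosome 12, a cluster of genes for C-type lectin-like receptors. The 4 compounds act mainly through related steroid receptors, which bind similar DNA elements, and MPA is known to bind more than one of them.

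The deposited log2 values have medians of 3.69 to 3.73 per array, and the correlation between arrays of the same group was 0.997 to 0.998 over all probe sets. The cells carried a luminal marker profile. Of 12 luminal markers 11 were measured, and these 11, among them EPCAM, GATA3 and KRT18, lay above the median of all values, 3.70. Their mean level over the 11 was 9.45 to 9.47 on the vehicle arrays, 9.34 to 9.39 with MPA, 9.38 to 9.42 with PROG, 9.44 to 9.50 with DHT and 9.44 to 9.52 with DEX. It was thus lower on all progestin arrays, where limma called ESR1 and PGR lower with both progestins and FOXA1 lower with MPA. ESR1 was also called lower with DHT, and KRT19 higher with all 4 compounds. The KRT19 call with MPA held in all 6 fits without 1 array, and the KRT19 and ESR1 calls with DHT were lost in all 6. The KRT19 call with PROG was lost without vehicle replicate 1 or 2 or PROG replicate 2 or 3. That with DEX was lost without vehicle replicate 1 or 2 or DEX replicate 2 or 3. With only the 2 groups compared in the fit, KRT19 lost its calls with PROG, DHT and DEX (limma adjusted p = 0.136, 0.208 and 0.227). ESR1 lost that with DHT (adjusted p = 0.169). The part of the luminal markers in the OLR1 differences was not tested. Markers of the cell types in which OLR1 is usually studied were mostly below it. Of 8 endothelial markers measured, 2 lay above it, ESAM and MMRN2, while VWF, KDR and TIE1 lay below it. Of 7 macrophage markers, 2 lay above it, CD68 and LYZ, while CD14, CSF1R and CD163 lay below it. Of 3 stromal and smooth muscle markers only LUM lay above it, and of 2 basal markers none did. None of these markers of other cell types was called by limma at an adjusted p under 0.05 in any of the 7 comparisons counted here, each compound against vehicle and DHT against each of the other compounds. At an unadjusted p under 0.05 there were 4 of 56 endothelial, 6 of 49 macrophage, 2 of 21 stromal and 0 of 14 basal tests, and with an intensity trend in limma 0 calls in each list. Of all named probe sets, 0.654% to 5.93% were called in these comparisons, so few calls would fall in lists of this size.

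OLR1 was highest with DHT and lowest with the progestins, on the log2 scale of the deposited values. The vehicle arrays read 5.25, 5.33 and 5.22, a mean of 5.27 ± 0.057 (SD, n = 3). The DHT arrays read 5.99, 5.92 and 6.02, a mean of 5.98 ± 0.051 (SD, n = 3). Each DHT array thus lay above every other array of the study, and the gap between the lowest DHT array and the highest vehicle array was 0.59. The MPA arrays read 4.87, 4.99 and 5.07, a mean of 4.98 ± 0.10 (SD, n = 3), and the PROG arrays 4.85, 5.12 and 5.09, a mean of 5.02 ± 0.15 (SD, n = 3). All 6 progestin arrays lay below all 3 vehicle arrays, and the MPA and PROG arrays overlapped each other. The DEX arrays read 5.35, 5.19 and 5.11, a mean of 5.22 ± 0.12 (SD, n = 3), and overlapped the vehicle arrays. All 5 group means lay above the median of all values.

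**Figure D1:**
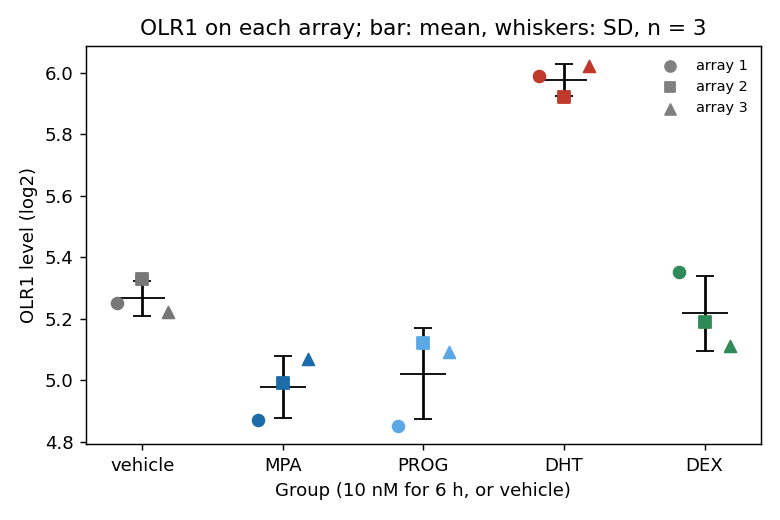
OLR1 level (log2) on each of the 15 arrays by group, with the group mean as a bar and the SD as whiskers (n = 3); marker shape gives the replicate number. The 3 DHT arrays lie between 5.92 and 6.02, above all others, and the 6 MPA and PROG arrays lie between 4.85 and 5.12, below the lowest vehicle array at 5.22.

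From low to high the order of the means was MPA, PROG, DEX, vehicle and DHT. MPA and PROG differed by 0.043, less than either group's SD. PROG and DEX differed by 0.20, which exceeds both SDs, yet their arrays overlapped by 0.01. DEX and vehicle differed by 0.05, less than the DEX SD of 0.12. Only the last step, from vehicle to DHT, separated neighbours in the order without overlap. The spread was unequal among groups, with a range of 0.10 over the DHT arrays and 0.27 over the PROG arrays. In both progestin groups the lowest reading came from array 1.

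Against vehicle, OLR1 was 0.71 higher with DHT, which is 1.64-fold. It was lower by 0.29 with MPA (-0.29, a ratio of 0.818) and by 0.25 with PROG (-0.25, a ratio of 0.843), and with DEX the difference was -0.05. The standard error of each of these differences, from limma's fit to all 15 arrays, was 0.078. The 95% intervals of the same fit were 0.54 to 0.88 for DHT, -0.46 to -0.12 for MPA, -0.41 to -0.078 for PROG and -0.22 to 0.12 for DEX. Since OLR1 was chosen by these means, every OLR1 interval given here describes spread only. It is not a test and need not hold its stated coverage. These 4 comparisons share the vehicle arrays, so their signs are not independent of each other. The progestin differences were smaller than the DHT difference, and more genes exceeded them. With MPA 734 of the 14841 named probe sets (4.95%) differed more from vehicle in either direction, and with PROG 640 (4.31%). With DHT 21 did (0.142%), all of them higher with DHT. Without PROG replicate 1 the PROG difference was -0.16, and without DEX replicate 3 the DEX difference turned to 0.0033.

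**Figure D2:**
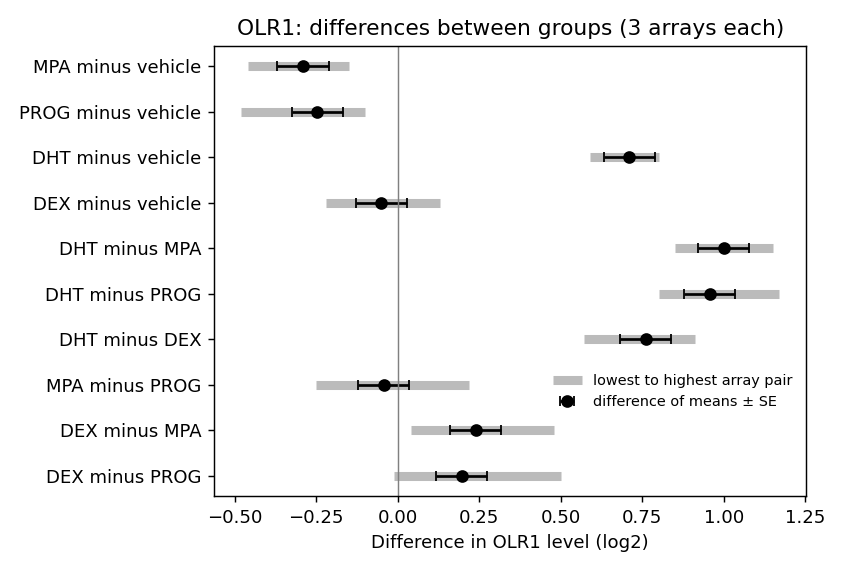
Differences in OLR1 level (log2) between groups, first minus second; points are differences of means with the standard error of limma's fit, and grey bars run from the lowest to the highest difference between single arrays of the 2 groups. DHT lies 0.71 to 1.00 above each other group, while the bars of DEX minus vehicle and MPA minus PROG cross 0.

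Between compounds at the matched dose and time, the largest OLR1 differences were those with DHT. The DHT level exceeded that of MPA by 1.00 (95% interval 0.83 to 1.17), that of PROG by 0.96 (0.79 to 1.12) and that of DEX by 0.76 (0.59 to 0.93). Any single DHT array exceeded any single MPA array by at least 0.85, any PROG array by at least 0.80 and any DEX array by at least 0.57. Of all named probe sets, 30 differed more than OLR1 between DHT and MPA in either direction, 15 between DHT and PROG and 13 between DHT and DEX. Of these, 4, 2 and 9 respectively were higher with DHT. MPA and PROG, which differ by the added methyl and acetoxy groups, were 0.043 apart in OLR1 (interval -0.21 to 0.12), and their arrays overlapped. The sign of this difference turned without MPA replicate 1 (0.01) or PROG replicate 2 (0.0067). DEX lay above MPA by 0.24 (0.072 to 0.41), with no overlap of arrays, and above PROG by 0.20 (0.028 to 0.36), where the arrays overlapped by 0.01. The latter was 0.11 without PROG replicate 1 and 0.13 without DEX replicate 1.

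The nearest gene with a named probe set is TMEM52B, a gene for a predicted transmembrane protein, whose span overlaps that of OLR1 in the RefSeq annotation of GRCh38.p14. No other annotated gene lies between them. Its arrays read 4.28, 4.48 and 4.22 with vehicle and 4.56, 4.60 and 4.92 with DHT. They read 4.10, 3.91 and 4.13 with MPA, and 4.09, 4.15 and 3.85 with PROG. As for OLR1, every DHT array of TMEM52B lay above every other array, and all 6 progestin arrays lay below all vehicle arrays. With DEX it read 4.28, 4.24 and 3.96, overlapping the vehicle arrays.

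TMEM52B was named for its position, and its levels were tested. It rose by 0.65 ± 0.12 (SE) from MPA to DHT (limma adjusted p = 0.00398), where 3.51% of all named probe sets were called, and by 0.66 ± 0.12 from PROG to DHT (limma adjusted p = 0.00639), where 1.71% were called. Both calls were kept in all 6 fits that left out 1 of the arrays compared. With only the 2 groups compared in the fit, the call against PROG was lost (limma adjusted p = 0.0571) and that against MPA was kept (adjusted p = 0.0267). None of its differences from vehicle passed the test. They were 0.37 ± 0.12 with DHT (limma adjusted p = 0.231), -0.28 ± 0.12 with MPA (adjusted p = 0.216), -0.30 ± 0.12 with PROG (adjusted p = 0.283) and -0.17 ± 0.12 with DEX (adjusted p = 0.694). The difference between DHT and DEX was 0.53 ± 0.12 (adjusted p = 0.0555), and it passed with an intensity trend (adjusted p = 0.0331) and among probe sets above the median level (adjusted p = 0.0397). Since the spans of the genes overlap, signal from one can reach the probe set of the other. The probe positions are not analysed here, and this was not tested. The tests of TMEM52B are therefore not known to be independent of the levels by which OLR1 was chosen.

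**Figure D3:**
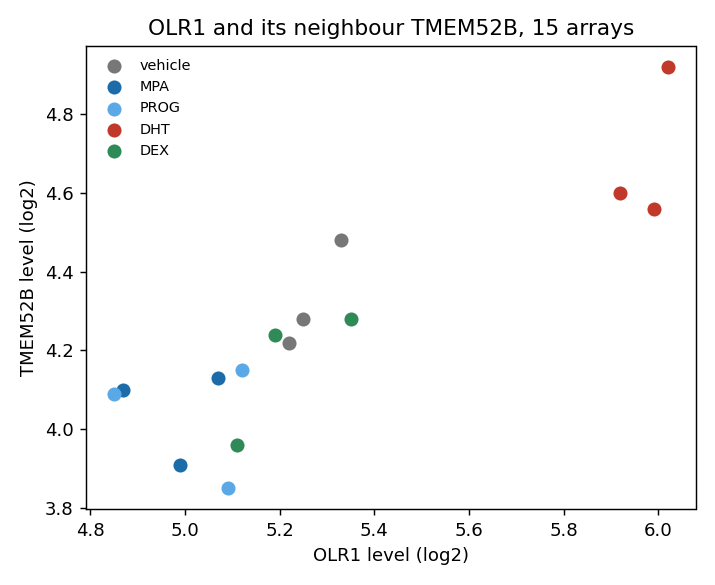
TMEM52B level against OLR1 level (both log2) on the 15 arrays, coloured by group. The 3 DHT arrays are highest in both genes, and all MPA and PROG arrays lie below all vehicle arrays in both.

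Across the 15 arrays OLR1 and TMEM52B correlated with Pearson r = 0.88 and Spearman rho = 0.90. The arrays share the group structure, and without the 3 DHT arrays r was 0.64 over the other 12. Within groups, as deviations from the group means, r was 0.33. The likeness thus lay mostly between groups rather than between arrays of 1 group.

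Genes farther away resembled OLR1 less. GABARAPL1, an autophagy gene on the far side of TMEM52B, had r = 0.28 with OLR1 and no call, with differences from vehicle of 0.03 ± 0.055 with DHT and 0.0067 ± 0.055 with MPA. KLRA1P, the next named gene on that side, had r = -0.38. On the other side the nearest gene with a named probe set was CD69, a lymphocyte activation marker, which lies 19 annotated genes away, stayed below the median of all values and had r = -0.29. LOC642846 (r = 0.38) and LINC00987 followed, and neither was called. LINC00987 had 2 probe sets, 1 below the median of all values with r = -0.78 and 1 above it with r = 0.12. The lectin-like receptor genes closest to OLR1 on that side, among them CLEC7A and CLEC1A, were not analysed here. Of 23 genes listed for the cluster and its surroundings 5 were measured. STYK1, a gene for a receptor-like kinase in those surroundings, moved opposite to OLR1 with the progestins. It rose by 0.55 ± 0.084 with MPA (limma adjusted p = 7.26e-04) and by 0.41 ± 0.084 with PROG (adjusted p = 0.0152), where 5.93% and 2.82% of all probe sets were called. The PROG call was lost without vehicle replicate 1, vehicle replicate 2, PROG replicate 1 or PROG replicate 2 (highest adjusted p = 0.0794). With DHT STYK1 stood 0.40 ± 0.084 below MPA (adjusted p = 0.0132), a call lost without MPA replicate 2 or DHT replicate 1 (highest adjusted p = 0.0751). Its DHT mean of 5.84 lay above the vehicle mean of 5.69, the sign of the OLR1 difference, and was not called against vehicle.

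Likeness to OLR1 was then measured over all named genes, as Pearson r across the 15 arrays. The search took in 1182 probe sets whose group means spanned at least 0.3 and whose highest group mean lay above the median of all values. The median r was -0.12, and 15 probe sets reached 0.8. The 8 genes most like OLR1 were NPNT (r = 0.89), EDARADD (0.89), NFYC-AS1 (0.88), TMEM52B (0.88), GLI3 (0.87), CNNM1 (0.86), GDF15 (0.84) and DSCAM-AS1 (0.84). NPNT encodes nephronectin, an extracellular matrix ligand of integrins. EDARADD encodes the adaptor of the ectodysplasin receptor, GLI3 a transcription factor of Hedgehog signalling, and CNNM1 a membrane protein of the cyclin M family. GDF15 encodes a stress-induced secreted factor, and DSCAM-AS1 is a long non-coding RNA of luminal breast cancer cells. TMEM52B was the only gene among the 8 that lies beside OLR1 on the chromosome.

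These 8 genes had their highest group mean with DHT and their lowest with a progestin, as the choice by likeness to OLR1 favours, and they are given with no test. NPNT read 8.44 with DHT, 8.27 with vehicle, 7.94 with MPA and 8.04 with PROG. GLI3 read 7.39 with DHT, 7.08 with vehicle, 6.83 with MPA and 6.96 with PROG. The means differed in the balance between DHT and MPA, and this balance was not tested. In size, the DHT and MPA differences of TMEM52B, GLI3 and CNNM1 lay closer together than the SE of either. TMEM52B, NFYC-AS1 (0.32 ± 0.090 with DHT and -0.16 ± 0.090 with MPA), GLI3 (0.31 ± 0.068 and -0.25 ± 0.068) and CNNM1 (0.28 ± 0.070 and -0.23 ± 0.070) departed further from vehicle with DHT than with MPA, as OLR1 did. NPNT (0.18 ± 0.039 and -0.33 ± 0.039), EDARADD (0.17 ± 0.062 and -0.24 ± 0.062), GDF15 (0.14 ± 0.049 and -0.24 ± 0.049) and DSCAM-AS1 (0.14 ± 0.057 and -0.34 ± 0.057) departed further with MPA. None of the 8 reached the OLR1 difference with DHT, the nearest being TMEM52B at 0.37.

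**Figure D4:**
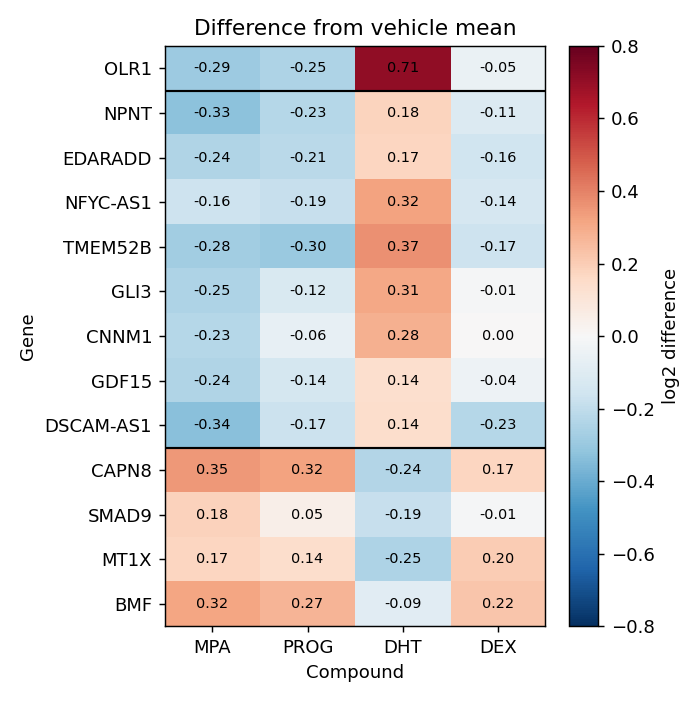
Group mean minus vehicle mean (log2) with each compound for OLR1 (top), the 8 genes most like it and the 4 most unlike it across the 15 arrays; colour and number give the difference. The 8 genes show negative values with MPA and PROG and positive values with DHT, and OLR1 has the largest DHT value, 0.71.

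The 4 genes most unlike OLR1 were CAPN8, a calpain protease (r = -0.91), SMAD9, a mediator of BMP signalling (r = -0.86), the metallothionein gene MT1X (r = -0.85) and BMF, a promoter of apoptosis (r = -0.82). CAPN8 read 7.33 with MPA, 7.30 with PROG, 6.98 with vehicle and 6.74 with DHT, the reverse of the OLR1 order in these groups. MT1X was the least steady of them, with r = -0.29 over the 12 arrays without DHT.

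The list of most similar genes depended on how likeness was measured. Without the 3 DHT arrays, a choice made after seeing the data, it shared 0 genes with the list above. With 1 array left out the lists shared 5 to 8 of the 8, the fewest without DHT replicate 1 or DHT replicate 3. NPNT and TMEM52B were in all 15 of those lists.

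The wider LOX-1 pathway, meaning genes around the receptor encoded by OLR1, was followed through 11 lists with 170 genes, of which 90 had a named probe set. Between DHT and MPA 17 of the 90 were called (18.9%, with 3.51% of all named probe sets). Of these 8 were higher (0.977% of all) and 9 lower with DHT (2.53% of all). Between DHT and PROG 10 were called (11.1%, with 1.71% overall), 5 higher (0.35% overall) and 5 lower with DHT (1.36% overall). Against vehicle 13 were called with MPA (14.4%, with 5.93% overall), 9 higher (4.11% overall) and 4 lower (1.82% overall). With PROG 9 were called (10.0%, with 2.82% overall), 7 higher (2.43% overall) and 2 lower (0.391% overall). With DHT 4 were called (4.44%, with 0.889% overall), 3 higher (0.775% overall) and 1 lower (0.115% overall), and with DEX 4, all higher (4.44%, with 1.11% overall in either direction and 0.957% higher). Between DHT and DEX 2 were called (2.22%, with 0.654% overall), NCEH1 higher (0.256% overall) and HILPDA lower with DHT (0.398% overall). The DHT count against vehicle became 2 without any 1 of the 6 arrays. The DEX count became 2 without vehicle replicate 1, vehicle replicate 3, DEX replicate 2 or DEX replicate 3, and the count between DHT and DEX became 1 without DEX replicate 2. The lists were put together with earlier results of these data known, and they include steroid receptors and AP-1 genes that are themselves hormone-responsive. The counts between DHT and each progestin include TMEM52B, whose tests are not known to be independent of OLR1. The shares were not matched for level. All 15 measured regulators of OLR1 and 8 of 9 steroid receptors and partners lay above the median of all values, but only 3 of 12 scavenger receptors.

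Among the other scavenger receptors none passed the test. Of 12 measured, 0 were called by limma in the 7 comparisons, with 12 of 84 tests at an unadjusted p under 0.05 and 0 calls with an intensity trend. Only 3 of them lay above the median of all values, CD68, CXCL16 and AGER, while CD36 and MSR1, receptors for oxidized LDL like OLR1, lay below it, where these arrays give little information in either direction. The list's median difference between DHT and MPA was 0.023, and that of all named probe sets was 0. The genes that the receptor is known to induce in vessel cells, such as ICAM1 and VCAM1, had 0 calls among 9 measured (4 of 63 tests at an unadjusted p under 0.05, 0 calls with an intensity trend), and 3 of them lay above that median. ADAM10, ADAM17, BACE1 and 5 other genes of shedding and membrane traffic also had 0 calls (1 of 56 tests at an unadjusted p under 0.05, 0 calls with an intensity trend). Of all named probe sets, limma called 5.93% with MPA, 2.82% with PROG, 0.889% with DHT and 1.11% with DEX against vehicle. The shares for DHT against MPA, PROG and DEX were 3.51%, 1.71% and 0.654%. At such shares lists of this size would hold few calls, so the counts of 0 say little about these genes.

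A few genes of lipoprotein and cholesterol handling, and the ligand gene FN1, were, like OLR1, higher with DHT than with a progestin. Of 9 lipoprotein uptake genes measured 1 was higher and 1 lower with DHT than with MPA (median difference 0.047), as in 4 cholesterol efflux genes (0.065), and of 4 ligands of the receptor 1 was higher (0.14). Of all named probe sets 0.977% were higher and 2.53% lower in this comparison, with a median difference of 0. MYLIP, a ubiquitin ligase that degrades the LDL receptor, rose with DHT by 0.34 ± 0.051 against vehicle (limma adjusted p = 0.00436) and stood 0.38 ± 0.051 above PROG (adjusted p = 7.40e-04), calls kept in all 6 fits without 1 array. With only the 2 groups compared in the fit the call against vehicle was lost (adjusted p = 0.0951), as were the MYLIP call against MPA (0.143) and the NCEH1 (0.159 to 0.299) and FN1 (0.167 and 0.0570) calls given next. It stood 0.24 ± 0.051 above MPA (adjusted p = 0.0176), a call lost without MPA replicate 1, MPA replicate 2 or DHT replicate 3. Unlike OLR1, MYLIP also had higher means with DEX (8.28) and MPA (8.17) than with vehicle (8.06), and with PROG it read 8.02. NCEH1, a cholesterol ester hydrolase, was higher with DHT than with each other group, by 0.22 ± 0.048 against vehicle (adjusted p = 0.0487, lost without any 1 of the 6 arrays), by 0.21 ± 0.048 against MPA (adjusted p = 0.0270, lost without DHT replicate 3 or any 1 MPA array), by 0.23 ± 0.048 against PROG (adjusted p = 0.0196, lost without PROG replicate 1, PROG replicate 2 or DHT replicate 3) and by 0.28 ± 0.048 against DEX (adjusted p = 0.0137, lost without DEX replicate 2). FN1, which encodes fibronectin, a protein ligand of the receptor, was higher with DHT than with MPA by 0.27 ± 0.063 (adjusted p = 0.0273, lost without MPA replicate 2, DHT replicate 2 or DHT replicate 3). Its difference from PROG was 0.32 ± 0.063 (adjusted p = 0.0161, lost without PROG replicate 3, DHT replicate 2 or DHT replicate 3). Unlike OLR1, NCEH1 had means with MPA (7.76) and PROG (7.73) near that with vehicle (7.75).

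A few genes of lipid uptake and storage were highest with a progestin, where OLR1 was low. VLDLR, a lipoprotein receptor, rose with MPA by 0.68 ± 0.11 (limma adjusted p = 9.95e-04) and was lower with DHT than with MPA by 0.62 (-0.62 ± 0.11, adjusted p = 0.00315). Its level with DHT, 4.97, was near that with vehicle, 4.92. HILPDA, an inhibitor of lipid droplet breakdown, rose with MPA by 0.94 ± 0.058 (adjusted p = 8.21e-08) and with PROG by 1.00 ± 0.058 (adjusted p = 1.25e-07), and was lower with DHT than with PROG (-1.06 ± 0.058, adjusted p = 1.94e-07). With DEX, where OLR1 was near the vehicle level, HILPDA also rose, by 0.31 ± 0.058 (limma adjusted p = 0.0171). That call was lost without any 1 vehicle array, DEX replicate 2 or DEX replicate 3. It was also lost with only the 2 groups compared in the fit (adjusted p = 0.103). Of 10 lipid storage genes 0 were higher and 2 lower with DHT than with MPA, HILPDA and PLIN3 (-0.30 ± 0.074, adjusted p = 0.0370, lost with only the 2 groups compared in the fit, adjusted p = 0.210, and without MPA replicate 1, DHT replicate 1 or DHT replicate 2), and the list's median difference was -0.12. The shares of all named probe sets were 0.977% higher and 2.53% lower, with a median of 0. LPCAT3, a phospholipid acyltransferase from the efflux list, rose with MPA by 0.27 ± 0.034 (adjusted p = 1.31e-04), and its difference with DHT was 0.11 ± 0.034 (adjusted p = 0.208), of the same sign as that of OLR1.

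Among 15 measured transcription factors known to act on OLR1, or their partners, 3 AP-1 genes rose with the progestins, where OLR1 was low. Of all named probe sets 4.11% were called higher with MPA and 2.43% with PROG. With MPA and PROG, respectively, JUN (0.92 ± 0.074 and 0.67 ± 0.074), FOSL2 (0.74 ± 0.046 and 0.66 ± 0.046) and JUNB (0.61 ± 0.048 and 0.47 ± 0.048) rose. All 3 encode AP-1 subunits, and all 6 of these limma calls held with any 1 array left out. Each of the 3 was lower with DHT than with both progestins, JUN by -0.71 ± 0.074 against MPA (limma adjusted p = 3.65e-05) and FOSL2 by -0.54 ± 0.046 (adjusted p = 4.14e-06). With DHT they did not lie below vehicle, and their differences from it, 0.21 ± 0.074 for JUN, 0.20 ± 0.046 for FOSL2 and 0.20 ± 0.048 for JUNB, had the sign of the OLR1 difference and did not pass the test (limma adjusted p = 0.326, 0.0566 and 0.0758). With DEX, where OLR1 was near the vehicle level, FOSL2 rose by 0.40 ± 0.046 (adjusted p = 3.50e-04) and JUNB by 0.24 ± 0.048 (adjusted p = 0.0250, lost without DEX replicate 1, 2 or 3, vehicle replicate 1 or vehicle replicate 3). With only the 2 groups compared in the fit, JUNB lost the DEX call (adjusted p = 0.120) and the call between DHT and PROG (adjusted p = 0.0733). NFKB1, an NF-kB subunit gene, fell with MPA (-0.23 ± 0.046, adjusted p = 0.00646, and 0.0528 with only the 2 groups compared in the fit), and the difference of 0.21 ± 0.046 between DHT and MPA (adjusted p = 0.0170) lost its call with only the 2 groups compared in the fit (adjusted p = 0.104) and without MPA replicate 1, DHT replicate 2 or DHT replicate 3. The median difference of the list between DHT and MPA was -0.08, and that of all named probe sets was 0.

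Of 9 measured steroid receptors and partners, PGR and ESR1 fell with both progestins, where OLR1 was also lower. FOXA1, from the same list, fell with MPA (-0.31 ± 0.047, limma adjusted p = 6.25e-04). Of all named probe sets 1.82% were called lower with MPA and 0.391% with PROG. ESR1, the estrogen receptor gene, was also lower with DHT than with vehicle, opposite to OLR1 (-0.30 ± 0.065, limma adjusted p = 0.0486, lost without any 1 of the 6 arrays). PGR, the progesterone receptor gene, stood 0.39 ± 0.056 higher with DHT than with MPA (limma adjusted p = 6.62e-04) and 0.34 ± 0.056 higher than with PROG (adjusted p = 0.00469). Unlike OLR1, its DHT mean of 8.05 lay below the vehicle mean of 8.30 (-0.24 ± 0.056, adjusted p = 0.0634). FKBP5, a co-chaperone of the receptors, rose with all 4 compounds, most with MPA (2.16 ± 0.13) and least with DHT (0.93 ± 0.13, limma adjusted p = 0.00299, and 0.103 with only the 2 groups compared in the fit).

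**Figure D5:**
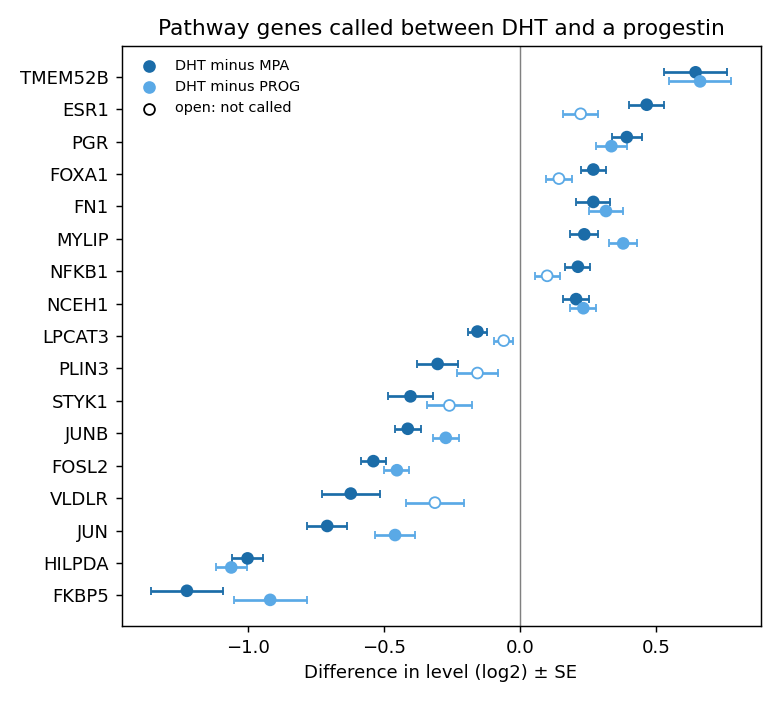
Difference in level (log2, DHT minus MPA in dark blue and DHT minus PROG in light blue, ± SE) for the 17 pathway genes called in at least 1 of these comparisons; open points were not called. TMEM52B has the largest positive difference, and HILPDA and FKBP5 the largest negative ones.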

How the data were processed

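RNA of ZR-75-1 cells was measured on 15 arrays, 3 per group, grouped by the sample titles. The deposited table holds log2 expression values per probe set with 2 decimals, processed with RMA and Partek, per the submitters' processing notes. Versions, settings, the build and probe positions were not given in the sources used here. Summaries of this kind shrink differences between dim probe sets. The platform annotation names 14841 probe sets with 1 symbol, and symbols were updated through RefSeq (GRCh38.p14), used for names and gene order only. Values were used as deposited, with no filter. limma 3.58.1 in R 4.3.3 (lmFit, eBayes) estimated 5 group means from all 15 arrays, using 2-sided tests and Benjamini-Hochberg adjustment within each comparison. "Called" means an adjusted p under 0.05, and ± gives the standard error unless SD is stated. The code was tested on simulated data. The gene, the lists and the comparisons were chosen with earlier results of these data known. Named genes were OLR1, the 8 most like it and the 4 most unlike it, its 3 nearest named genes on each side, steroid receptors, markers, and part of the up to 4 largest called members of each list and comparison. A list member with several probe sets was read from the one with the highest mean. A gene most like or unlike OLR1 was read from its searched probe set with the largest absolute r with OLR1, a choice that favours likeness or unlikeness. For neighbours every probe set was read. One item of the rule is not reported here. Separate cultures are not stated in any label. The p-values thus reflect only the spread between arrays, which may be technical. The labels also call vehicle cells untreated and give no solvent for the compounds.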

Additional observations from a re-analysis of the deposited data

How the results depend on the processing

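The OLR1 differences of DHT from every other group, of MPA and PROG from vehicle and of DEX from the progestins kept their sign in every alternative run, and moved by less than the pooled SD of 0.10. The differences near 0 did not keep theirs. With 1 array left out, DEX minus vehicle ran from -0.12 to 0.0033 (positive without DEX replicate 3) and MPA minus PROG from -0.13 to 0.01 (positive without MPA replicate 1, and 0.0067 without PROG replicate 2). With the replicate number as a block the DHT minus vehicle difference of OLR1 stayed 0.71. Over all named probe sets no pairing by number was seen. Deviations of same-numbered arrays correlated by -0.054 to 0.067 and those of differently numbered arrays by -0.088 to 0.066, and 4 of 15 arrays were closest to their own number. This does not exclude pairing, since an effect shared by a small part of the probe sets could be missed.

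With only the groups compared in the fit, all named probe sets gave fewer calls against vehicle, 526 rather than 880 with MPA, 255 rather than 419 with PROG, 54 rather than 132 with DHT and 44 rather than 164 with DEX. Between compounds there were 292 rather than 521 for DHT minus MPA, 146 rather than 254 for DHT minus PROG and 39 rather than 97 for DHT minus DEX. An intensity trend gave 220 for DHT against vehicle and 166 for DHT minus DEX. With 1 array left out the numbers were 257 to 336 for PROG, 66 to 132 for DHT, 78 to 123 for DEX, 168 to 256 for DHT minus PROG and 62 to 135 for DHT minus DEX.

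For the pathway lists, the 4 calls with DHT against vehicle became 2 with the replicate block, with arrays centred on their medians and with all deposited probe sets, 0 with only the groups compared, 8 with only probe sets above the median level and 9 with an intensity trend, and 2 with any 1 array left out. The 4 with DEX became 2 with only the groups compared, 7 with a trend and 2 to 4 with 1 array left out. The 17 for DHT minus MPA became 11, the 10 for DHT minus PROG 6 and the 2 for DHT minus DEX 0 with only the groups compared. For DHT minus DEX there were 4 above the median level, 4 with a trend and 1 to 2 with 1 array left out. The cause of these shifts was not tested.

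Of the 8 genes most like OLR1, Spearman rho kept 4, the 5 group means 2, a minimum range of 0.5 kept 5, and leaving out 1 array 5 to 8. Deviations from the group means and the 12 arrays without DHT, both chosen after seeing the data, kept 0.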

Other observations

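With a smaller minimum range of group means, 0.2, the gene most like OLR1 was AHR, the gene of the aryl hydrocarbon receptor, with r = 0.89 over the 15 arrays among 2825 probe sets. AHR read 11.83 with DHT, 11.68 with vehicle, 11.57 with MPA and 11.55 with PROG. Its group means spanned 0.28, just under the minimum of 0.3 used above. OSGIN1, an oxidative stress response gene, entered the same list (r = 0.87).

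Over the 12 arrays without DHT, a selection made after seeing the data, genes most like OLR1 included MMP16, a membrane-bound metalloproteinase (r = 0.85), and the chemokine receptor gene CXCR4 (r = 0.83). PGR was also among them (r = 0.82). CXCR4 read 5.20 with vehicle, 4.43 with MPA and 4.81 with PROG, and with DHT it lay below vehicle, at 4.66, where OLR1 lay above it.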
